A study of Mus musculus with 13 samples.

Results

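A set of 10 liver genes at the junction of glucose production and insulin action were followed across 13 mice. These genes were chosen by function, with earlier results of these data known, and all 10 were found in the table of 53465 genes and passed the filter on low counts, which left 13545 genes for testing. The set holds the gluconeogenic enzyme genes *Pcx*, *Pck1*, *Fbp1* and *G6pc*, the amino acid catabolic enzyme gene *Tat*, the insulin receptor gene *Insr* with the docking protein genes *Irs1* and *Irs2*, and the insulin-regulated transcription factor gene *Foxo1* with the secreted-protein gene *Igfbp1*. Liver RNA came from male BALB/c mice, an inbred laboratory strain. The labels give 30 weeks both as their age and as the time on diet, and the methods of the study give a slightly longer time on diet. The 6 WT mice and the 7 Nod2-/- mice, which lack the intracellular sensor of bacterial peptidoglycan encoded by *Nod2*, had both been painted as pups with DMBA, a skin-applied carcinogen, and kept on a high-fat diet (HFD). No library from mice on chow or without DMBA was part of the comparison, so genotype was the only contrast in the design. In the study, Nod2-/- males on this treatment gained more weight than WT males, lost weight late and had more liver tumors. Body weight and tumor load thus went with genotype and cannot be told apart from it here. Per the methods of the study, WT and Nod2-/- mice were not littermates and came from several cages and breeder pairs, and the deletion was checked in genomic DNA. The labels give the disease state of all libraries as cancer. In the study, most Nod2-/- males on this treatment had liver tumors at the end, against a minority of WT males. The label does not show this difference. Whether the mice were fasted before the liver was taken is not given in the sources used here.

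The liver makes glucose from lactate, glycerol and amino acids between meals and stops when insulin rises after a meal. Insulin acts through its receptor and the docking proteins IRS1 and IRS2 to activate the kinase AKT, which drives FOXO1 out of the nucleus and so lowers the transcription of *Pck1*, *G6pc* and *Igfbp1*. Glucagon, glucocorticoids and the cAMP pathway act in the opposite direction, and *Pck1*, *G6pc* and *Tat* are textbook targets of these hormones. In obesity the liver often keeps producing glucose in spite of high insulin, a state called hepatic insulin resistance.

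The upstream sequences of 3 genes are shown because *Pck1* and *G6pc* followed each other from mouse to mouse and *Igfbp1* varied the most, as described further on. Each is the 250 bases before the transcript start in RefSeq (build GRCm38.p6), printed 5′ to 3′ on the gene's own strand, with matches to the searched motifs in capitals. The *Pck1* window spans chr2:173152823-173153072 on the plus strand, the *G6pc* window chr11:101367466-101367715 on the plus strand and the *Igfbp1* window chr11:7197537-7197786 on the plus strand.
Pck1: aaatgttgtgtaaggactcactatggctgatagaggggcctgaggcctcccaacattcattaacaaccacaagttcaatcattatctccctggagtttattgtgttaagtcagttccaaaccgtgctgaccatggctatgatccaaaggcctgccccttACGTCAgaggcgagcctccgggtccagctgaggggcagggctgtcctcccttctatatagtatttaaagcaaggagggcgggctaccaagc
G6pc: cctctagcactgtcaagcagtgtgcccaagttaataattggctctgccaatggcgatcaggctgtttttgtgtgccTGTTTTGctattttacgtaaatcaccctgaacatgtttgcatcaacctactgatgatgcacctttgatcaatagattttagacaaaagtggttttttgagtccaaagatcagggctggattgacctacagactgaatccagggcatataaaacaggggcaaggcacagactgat
Igfbp1: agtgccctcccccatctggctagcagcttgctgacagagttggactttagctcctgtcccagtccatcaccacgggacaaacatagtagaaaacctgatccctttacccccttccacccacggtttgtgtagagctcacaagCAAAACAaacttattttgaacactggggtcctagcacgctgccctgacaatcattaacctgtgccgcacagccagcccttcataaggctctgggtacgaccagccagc

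The 3 motifs, searched on both strands, were TGACGT (the core of a cAMP response element), TGTTTTG (the core of the insulin response sequence) and TGTTTAC (a forkhead core). The *Pck1* window held TGACGT, read on the other strand as ACGTCA, starting 91 bases before the transcript start. The *G6pc* window held TGTTTTG starting 174 bases before the start, and the *Igfbp1* window held it on the other strand, as CAAAACA, starting 108 bases before the start. A promoter sequence was found for 9 of the 10 genes, all but *Insr*. TGTTTTG also occurred 2 times upstream of *Irs1* and 1 time upstream of *Irs2*, so that 4 of the 9 genes held it, whereas 5.6% of all 32851 mouse promoters of that length did. TGACGT was found in 6.5% of all promoters and TGTTTAC in 3.2%, the latter upstream of none of the 9 genes. These are matches of letters only. The GENCODE gene starts of *Pck1*, *G6pc* and *Igfbp1* lie inside the 3 printed windows.

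Depth ran from 14886273 to 20579984 counts in the WT libraries and from 13824780 to 19391431 in the Nod2-/- libraries. Normalized counts below are counts scaled by edgeR's TMM factors to the mean effective library size. *Nod2* itself had between 0 and 4.10 normalized counts in WT and between 0.997 and 6.16 in Nod2-/- mice, too few to check the genotype labels. The hepatocyte markers summed to between 92165 and 131238 CPM, the usual library-scaled count, in WT and between 103142 and 218865 in Nod2-/- mice. Of the markers of neighbouring organs, the islet genes *Gcg* and *Sst* were at 0 in every library. The 6 islet markers, of which 0 were tested, summed to 0 CPM in every WT library. Their sum was above 0 only in Nod2-/- replicates 3 and 7, in both below every acinar and lung sum given next. The 10 acinar markers, of which *Prss1*, *Cpa1*, *Pnlip* and *Try4* were at 0 throughout, summed to between 35.5 and 80.2 CPM in WT and between 13.5 and 56.5 in Nod2-/- mice, and the 1 that was tested was not called by edgeR and was called lower by DESeq2. Lung epithelium markers summed to between 12.9 and 184 CPM in WT and between 2.42 and 29.1 in Nod2-/- mice. Of these 7 markers, edgeR called 0 of the 4 tested and DESeq2 called 5 lower, beside 4.03% of all genes. Neutrophil markers summed to between 4.17 and 9.33 CPM in WT and between 6.00 and 976 in Nod2-/- mice, highest in Nod2-/- replicate 7, and erythroid markers to between 306 and 523 and between 376 and 1158 CPM. DESeq2 called 3 of 10 neutrophil and 4 of 6 erythroid markers higher, beside 4.38% of all genes, and edgeR called 0. Cholangiocyte markers summed to between 35.9 and 217 CPM in WT and between 108 and 402 in Nod2-/- mice, with 1 of 6 tested called higher by edgeR, and WT replicate 3 and Nod2-/- replicate 4 were the highest of their groups. WT replicate 3 also had the highest stellate cell sum (412 CPM). The part of these cell types in the results below was not tested. In whole liver, fewer cells of a type and less RNA per cell cannot be told apart.

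The 10 genes spanned a wide range of levels. On the scale of CPM per kilobase of exon, *Pck1* was the most abundant in WT liver at 732 ± 202 (SD, n = 6), followed by *Fbp1* at 631 ± 82.7 and *Tat* at 419 ± 131. *Pcx* (138 ± 12.5), *G6pc* (90.2 ± 58.0) and *Igfbp1* (68.0 ± 81.6) formed a middle group. The signalling genes were far lower, with *Insr* at 12.2 ± 2.40, *Foxo1* at 7.68 ± 1.54, *Irs2* at 2.74 ± 0.820 and *Irs1* at 2.19 ± 0.356. Taking the larger SD of each neighbouring pair as the yardstick, *Pck1* and *Fbp1*, *Pcx* and *G6pc*, *G6pc* and *Igfbp1*, *Igfbp1* and *Insr*, and *Irs2* and *Irs1* did not differ beyond their spread, whereas the other neighbours did. In Nod2-/- liver the levels in CPM per kilobase ran from 619 ± 73.2 for *Fbp1* and 583 ± 156 for *Pck1* (SD, n = 7) to 2.30 ± 0.398 for *Irs1*, and *Igfbp1* stood at 147 ± 158.

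None of the 10 genes differed between WT and Nod2-/- mice at 5% FDR by edgeR's quasi-likelihood test, a test in which 157 of 13545 genes, or 1.16%, passed. At an unadjusted p under 0.05, a bar that 23.1% of all tested genes cleared (12.9% higher and 10.2% lower in Nod2-/- mice), again 0 of the 10 passed, and DESeq2 and limma's voom, which called 8.41% and 6.22% of genes, called 0 of the 10 as well. The fitted log2 fold change (Nod2-/- against WT) was above 0 for 4 genes and below 0 for 6, with a median of -0.06 beside 0.02 for all tested genes. The groups overlapped in the normalized counts of every one of the 10 genes, whereas they did not overlap for 1.44% of tested genes. Without WT replicate 3 edgeR called 8.49% of genes, and without Nod2-/- replicate 4 it called 0.499%, in both cases none of the 10.

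**Figure D1:**
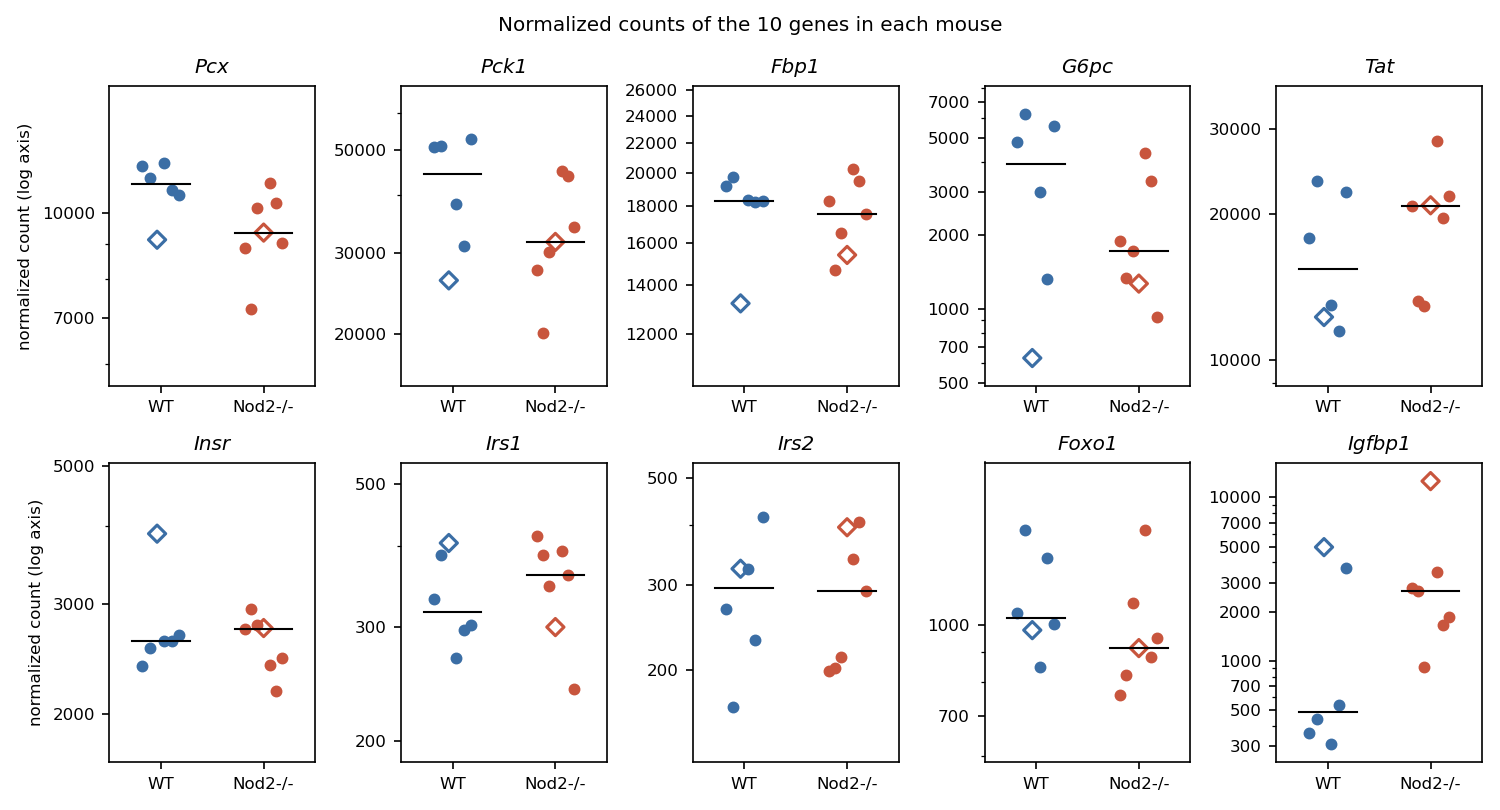
Normalized counts (log axis) of the 10 genes in each mouse, blue for WT and red for Nod2-/-, with a line at each group's median and open diamonds for WT replicate 3 and Nod2-/- replicate 4. The groups overlap in every panel, WT replicate 3 sits at the bottom of the WT mice for *Pcx*, *Pck1*, *Fbp1* and *G6pc* and at the top for *Insr* and *Igfbp1*, and *G6pc* and *Igfbp1* span the widest ranges.

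*Pcx* (ENSMUSG00000024892.16, chromosome 19, 4510472 to 4621752 of GRCm38) encodes pyruvate carboxylase, which turns pyruvate into oxaloacetate in the mitochondria and opens the pathway. Its lowest, median and highest normalized counts were 9133, 11026 and 11835 in WT and 7231, 9357 and 11066 in Nod2-/- mice. In all, 3 Nod2-/- mice lay below every WT mouse and 1 lay above the WT median. Its log2 fold change was -0.21 (SE 0.11, 95% interval -0.44 to 0.03, adjusted p = 0.274 by edgeR). A two-sided exact permutation test of the same counts gave p = 0.0420, which became 0.420 after adjustment over the 10 genes.

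*Pck1* (ENSMUSG00000027513.11, chromosome 2, 173153048 to 173159273) encodes the cytosolic phosphoenolpyruvate (PEP) carboxykinase, the enzyme that commits oxaloacetate to glucose synthesis and is controlled mainly through its transcription. Its lowest, median and highest normalized counts were 26125, 44377 and 52793 in WT and 20105, 31626 and 45042 in Nod2-/- mice. As many as 3 WT mice exceeded every Nod2-/- mouse, while the lowest WT mouse, replicate 3, lay below 6 of the 7 Nod2-/- mice. The log2 fold change of -0.33 (SE 0.21, 95% interval -0.78 to 0.13) did not pass the test (adjusted p = 0.372 by edgeR).

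*Fbp1* (ENSMUSG00000069805.10, chromosome 13, 62864753 to 62888282) encodes fructose bisphosphatase, the next irreversible step of the pathway. With lowest, median and highest normalized counts of 13208, 18313 and 19711 in WT and 14693, 17561 and 20277 in Nod2-/- mice, it was the enzyme gene with the smallest genotype difference, -0.03 on the log2 scale (95% interval -0.29 to 0.23). *G6pc* (ENSMUSG00000078650.2, chromosome 11, 101367561 to 101377903) encodes the catalytic subunit of glucose 6-phosphatase, which releases free glucose. WT replicates 1 to 6 had 4825, 6266, 629.9, 3007, 1331 and 5599 normalized counts, and Nod2-/- replicates 1 to 7 had 1891, 1342, 1729, 1269, 4352, 3319 and 930.1. The highest and the lowest mouse of all were thus both WT, a 9.95-fold range. The log2 fold change of *G6pc* was -0.77 with a wide interval of -1.79 to 0.26 (SE 0.48, adjusted p = 0.348 by edgeR), and it ran from -1.05 without Nod2-/- replicate 5 to -0.54 without WT replicate 2, and was -0.27 with 1 surrogate variable.

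*Tat* (ENSMUSG00000001670.13, chromosome 8, 109990437 to 109999803) encodes tyrosine aminotransferase, which starts tyrosine breakdown and is induced by glucocorticoids. Its lowest, median and highest normalized counts were 11525, 15429 and 23393 in WT and 12959, 20779.7 and 28236 in Nod2-/- mice. Of the 7 Nod2-/- mice, 5 lay above the WT median, yet only 1 exceeded all WT mice, and the log2 fold change of 0.23 (95% interval -0.23 to 0.70) did not pass the test (adjusted p = 0.537 by edgeR). *Tat* lies 21.3 Mb from *Nod2* on chromosome 8, which also carries *Irs2* (77.6 Mb away) and *Insr* (85.4 Mb away).

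*Insr* (ENSMUSG00000005534.10, chromosome 8, 3122061 to 3279617) encodes the insulin receptor. Its lowest, median and highest normalized counts were 2389, 2616 and 3889.7 in WT and 2176, 2738 and 2950.2 in Nod2-/- mice. WT replicate 3 alone made up the upper end, since the other WT mice lay between 2389 and 2673. The log2 fold change was -0.10 (95% interval -0.35 to 0.15, adjusted p = 0.637 by edgeR), and 0.01 without that mouse.

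The docking protein genes were close to level between the genotypes. *Irs1* (ENSMUSG00000055980.2, chromosome 1, 82233101 to 82291416) had lowest, median and highest normalized counts of 269, 317 and 405 in WT and 241, 361 and 415 in Nod2-/- mice, a log2 fold change of 0.07 (95% interval -0.21 to 0.36). *Irs2* (ENSMUSG00000038894.7, chromosome 8, 10984681 to 11008458), which is more abundant in the fasted than in the fed liver, had 167, 295 and 414 in WT and 199, 291 and 405 in Nod2-/- mice, a log2 fold change of 0.02 (95% interval -0.46 to 0.50). The ratio of *Irs2* to *Irs1* within each mouse did not separate the genotypes either, with a difference of -0.05 in mean log2 ratio (two-sided exact permutation p = 0.882). Exons of *Irs1* share 2822 bases, those of *Irs2* 162, those of *Foxo1* 674 and those of *Pck2*, described further on, 53 bases with antisense genes, and whether the counting used strand is not given in the sources used here.

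*Foxo1* (ENSMUSG00000044167.6, chromosome 3, 52268336 to 52353221), the transcription factor that AKT switches off, had lowest, median and highest normalized counts of 849.7, 1025 and 1443 in WT and 761, 913 and 1445 in Nod2-/- mice. Below all WT mice lay 2 Nod2-/- mice and above them 1, and the log2 fold change was -0.17 (95% interval -0.50 to 0.16, adjusted p = 0.522 by edgeR). *Foxo1* transcript levels do not report on where the protein was.

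*Igfbp1* (ENSMUSG00000020429.7, chromosome 11, 7197782 to 7202546) encodes a secreted binding protein of insulin-like growth factors, and insulin lowers its transcription. WT replicates 1 to 6 had 361, 441, 4957, 310.3, 535 and 3707 normalized counts, and Nod2-/- replicates 1 to 7 had 2802, 2668, 922, 12567, 3471, 1653 and 1848. Thus 4 WT mice lay below every Nod2-/- mouse, while WT replicates 3 and 6 lay above 6 of the 7 Nod2-/- mice. All 7 Nod2-/- mice were above the WT median of 488, and their own median was 2668. The log2 fold change was 1.11 with an interval from -0.52 to 2.73 (SE 0.76, adjusted p = 0.395 by edgeR), and an exact permutation test of the counts gave p = 0.339. It fell to 0.37 without Nod2-/- replicate 4 and reached 1.78 without WT replicate 3. The weighted fit of limma's voom, which lowers the weight of variable libraries, gave 1.91 with an adjusted p of 0.0830, the lowest of any alternative for any of the 10 genes.

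**Figure D2:**
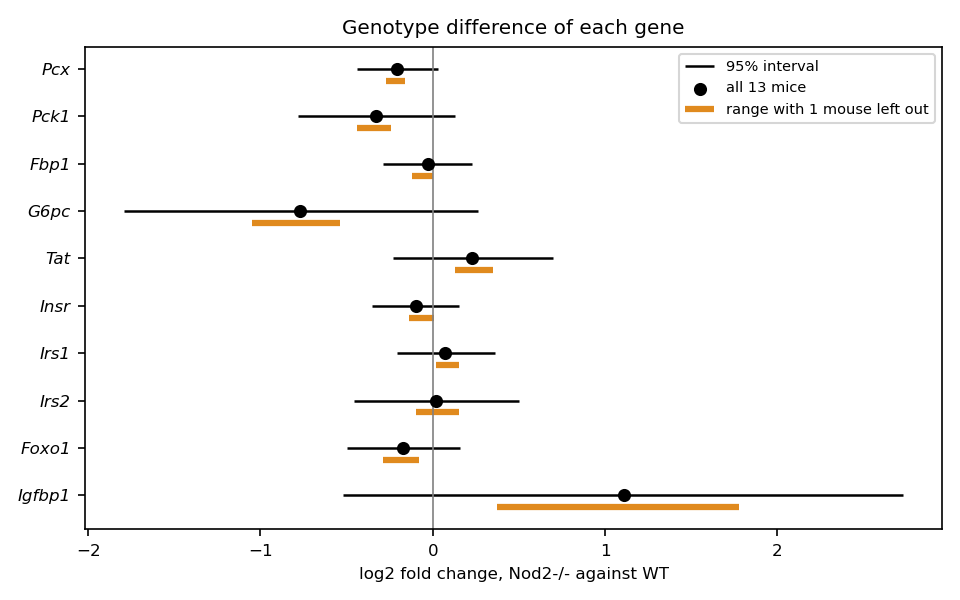
Log2 fold change of each gene, Nod2-/- against WT, from all 13 mice (points) with the 95% interval (black lines) and the range when any 1 mouse is left out (orange bars). Every interval spans 0, from the narrow one of *Pcx* (-0.44 to 0.03) to the wide one of *Igfbp1* (-0.52 to 2.73).

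The genes varied from mouse to mouse within a genotype to very different degrees. *Igfbp1* had a within-genotype SD of 1.48 on the log2 scale, larger than that of 99.5% of the 6511 tested genes with an average of at least 4 log2 CPM, and *G6pc* had an SD of 1.07, larger than that of 98.9%. *Irs2* (0.45), *Tat* (0.42) and *Pck1* (0.41) also had larger SDs than most genes, above 92.0%, 90.6% and 89.8% of them. *Foxo1* had an SD of 0.30 and *Irs1* of 0.25. The remaining genes were ordinary or steady, with SDs of 0.20 for *Insr* (47.9% of genes lower), 0.19 for *Fbp1* (41.8%) and 0.17 for *Pcx* (34.1%). Along the pathway, *Pck1* and *G6pc* had larger SDs than *Pcx* and *Fbp1*, a difference given without a test.

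Across the 13 mice *Pck1* and *Fbp1* each rose and fell with *G6pc*, and *Fbp1* ran opposite to *Insr*, with calls that rested in part on WT replicate 3. All 45 pairs of the 10 genes were correlated on log2(normalized count + 1), with permutation p-values adjusted over the 45. Of these, 3 pairs passed 5% FDR by both Pearson's r and Spearman's rho. *Pck1* and *G6pc* had r = 0.84 (permutation p = 0.000630, adjusted 0.00821) and rho = 0.80 (p = 0.00176 by permutation, adjusted 0.0264), and r was 0.98 among the WT and 0.64 among the Nod2-/- mice. *Fbp1* and *G6pc* had r = 0.79 (permutation p = 0.000730, adjusted 0.00821) and rho = 0.81 (p = 0.00132 by permutation, adjusted 0.0264), with 0.85 in WT and 0.76 in Nod2-/- mice. *Fbp1* and *Insr* had r = -0.87 (permutation p = 7.00e-05, adjusted 0.00315) and rho = -0.84 (p = 0.000810 by permutation, adjusted 0.0264), with -0.98 in WT and -0.82 in Nod2-/- mice. Each relation kept its sign in both genotypes. Within the Nod2-/- mice, the exact permutation p of r was 0.114 for *Pck1* and *G6pc*, whose rho there was only 0.39. It was 0.0496 for *Fbp1* and *G6pc* and 0.0256 for *Fbp1* and *Insr*, unadjusted.

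*Pcx* and *Pck1* passed by r (0.82, adjusted permutation p = 0.00821) and not by rho (0.73, adjusted 0.0505), and so did *Pck1* and *Fbp1* (r = 0.76, adjusted permutation p = 0.0185, rho = 0.75, adjusted 0.0505). Without the 2 mice farthest from the median of the first gene, r was 0.89 for *Pck1* and *G6pc*, 0.70 for *Fbp1* and *G6pc* and -0.66 for *Fbp1* and *Insr*. The count of pairs past the threshold by both measures was 0 without WT replicate 3, 1 without WT replicate 2 and 5 without Nod2-/- replicate 1, while the r values without WT replicate 3 were 0.83, 0.70 and -0.76 in the same order.

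Among all tested genes, 1.61% were as strongly correlated with *Pck1*, in either direction, as *G6pc* was, and 0.997% with *G6pc* as *Pck1* was. For *Fbp1* and *G6pc* these shares were 3.83% from the side of *Fbp1* and 2.69% from that of *G6pc*, and for *Fbp1* and *Insr* they were 1.03% and 0.295%. The levels also moved with the TMM factor, which spanned 0.90 to 1.08, with r of -0.63 for *Pck1*, -0.52 for *G6pc*, -0.50 for *Fbp1* and *Pcx* and 0.38 for *Insr* over the 13 mice, as a description. Its part in the relations was not tested. *Igfbp1* formed no pair that passed, and its strongest r was -0.59 with *Pcx* (adjusted permutation p = 0.147), with a rho of -0.61 (adjusted 0.139).

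**Figure D3:**
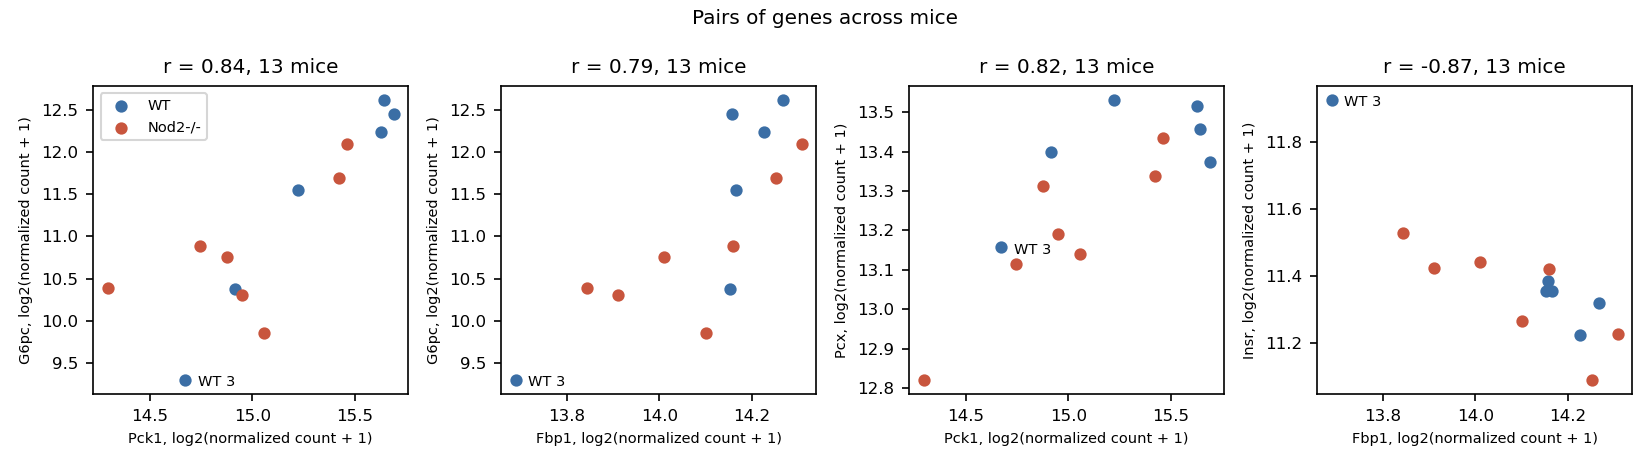
Pairs of genes across the 13 mice on log2(normalized count + 1) axes, blue for WT and red for Nod2-/-, with WT replicate 3 labelled. *G6pc* rises with *Pck1* (r = 0.84) and *Fbp1* (r = 0.79), *Pcx* rises with *Pck1* (r = 0.82) and *Insr* falls as *Fbp1* rises (r = -0.87), and WT replicate 3 lies at the low *G6pc* end and the high *Insr* end.

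The enzyme at the *Pck1* step exists in a cytosolic and a mitochondrial form, and the log2 ratio of their transcripts was lower on average in Nod2-/- mice. *Pck2* (chromosome 14, 55540266 to 55551242), the gene of the mitochondrial form, had 22.6, 14.3, 85.0, 28.5, 35.4 and 43.4 normalized counts in WT replicates 1 to 6 and 95.2, 127, 75.0, 262, 73.8, 52.3 and 104 in Nod2-/- replicates 1 to 7. WT replicate 3 was the only WT mouse within the Nod2-/- range. The log2 ratio of *Pck1* to *Pck2* within a mouse averaged 10.22 ± 1.19 (SD, n = 6, range 8.25 to 11.71) in WT and 8.32 ± 0.99 (SD, n = 7, range 6.91 to 9.68) in Nod2-/- mice. The difference of -1.90 passed a two-sided exact permutation test (p = 0.0117, adjusted over 3 ratios 0.0350), and with any 1 mouse left out it stayed between -2.29 and -1.60, with exact permutation p between 0.00253 and 0.0227. *Pck2* belongs to a list chosen with earlier results of these data known, which the adjustment over 3 ratios does not cover. Of all tested genes, 23.1% had an unadjusted p under 0.05 by edgeR.

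On its own, neither gene passed 5% FDR by edgeR. *Pck2* had a log2 fold change of 1.55 (SE 0.42) with an adjusted p of 0.0692 by edgeR, 0.00660 by DESeq2 and 0.0188 by edgeR without WT replicate 3, beside -0.33 for *Pck1*. Most of the difference in the ratio thus lay in *Pck2*. By edgeR, *Pck2* passed 5% FDR in only 1 of the 13 fits with 1 mouse left out, that without WT replicate 3. Its adjusted p reached 0.160 in the others, without WT replicate 2. Of the tested genes on chromosome 14, 4.90% passed 5% FDR by edgeR, whereas 1.02% did elsewhere in the genome, and the part of this in the *Pck2* values was not tested. The mice highest in *Pck2* in each genotype, WT replicate 3 and Nod2-/- replicate 4, were also those highest in the summed cholangiocyte markers, 217 and 402 CPM, whose part was not tested either.

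**Figure D4:**
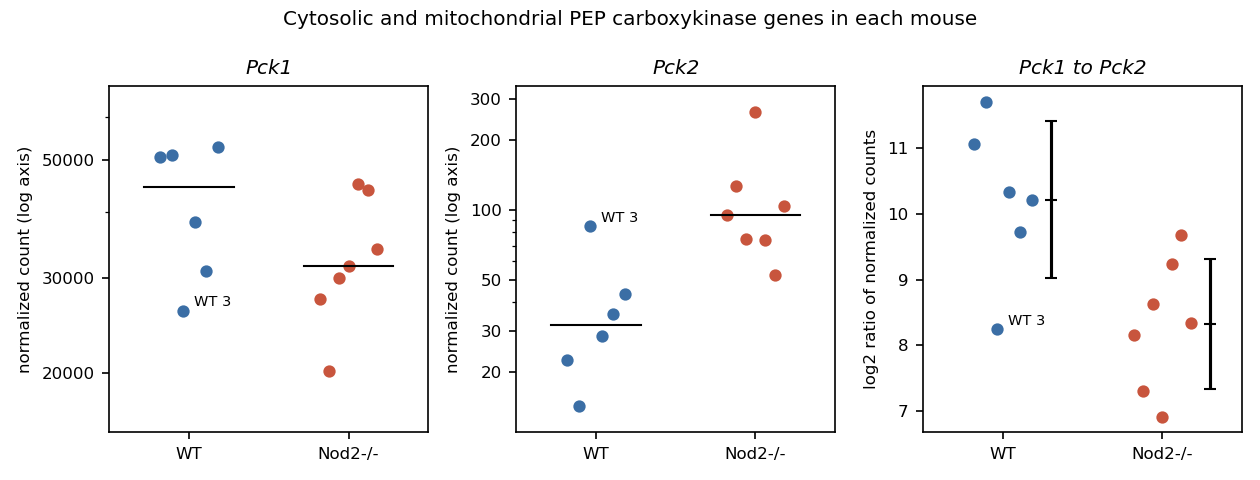
Normalized counts (log axis) of *Pck1* and *Pck2* with a line at each group's median, and the log2 ratio of *Pck1* to *Pck2* in each mouse with the mean and SD beside the points, blue for WT and red for Nod2-/-. The ratio averages 10.22 in WT and 8.32 in Nod2-/- mice, and WT replicate 3 (8.25) lies among the Nod2-/- mice.

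Around the 10 genes, 180 tested genes of 10 pathway lists were read from the same fit, and 3 of them passed 5% FDR by edgeR, *Slc25a13* and *Igfals* lower and *Fgf21* higher in Nod2-/- mice. In this fit 0.650% of all tested genes were called higher and 0.509% lower. Genes in more than 1 list count once among the 180. *Tat* is also in the glucocorticoid-responsive list, though not among the 180. DESeq2 called 6 of the 180 higher and 16 lower, beside 4.38% and 4.03% of all genes, and edgeR without WT replicate 3 called 7 higher and 11 lower, beside 5.12% and 3.37% of all genes.

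*Slc25a13* (chromosome 6, 6041218 to 6217173), which encodes the mitochondrial aspartate and glutamate carrier citrin, a member of the malate-aspartate shuttle that exports aspartate to the cytosol, had lowest, median and highest normalized counts of 4311, 4784 and 6621 in WT and 2716, 3645 and 3899 in Nod2-/- mice. All 7 Nod2-/- mice lay below all WT mice. Its log2 fold change was -0.59 (SE 0.13, adjusted p = 0.0422 by edgeR, 0.00103 by DESeq2). The call held in 4 of the 13 fits with 1 mouse left out, those without WT replicates 3 or 6 or Nod2-/- replicates 1 or 3, and the adjusted p reached 0.110 in the others, without WT replicate 2.

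*Igfals*, the gene of the liver-made subunit that holds circulating insulin-like growth factors in their large complex, had lowest, median and highest normalized counts of 2226, 2739 and 3271 in WT and 845, 1624 and 2054 in Nod2-/- mice. Again the groups did not overlap. This was a log2 fold change of -0.80 (SE 0.16, adjusted p = 0.0365 by edgeR, 0.000444 by DESeq2), and the call held in 6 of the 13 fits with 1 mouse left out, with adjusted p between 0.0172 and 0.0985. It was lost without WT replicates 1, 2, 4 or 5 and without Nod2-/- replicates 2, 6 or 7.

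*Fgf21*, the gene of a hormone that the liver releases on fasting and under nutrient stress, had lowest, median and highest normalized counts of 53.3, 89.6 and 113 in WT and 109, 263 and 594 in Nod2-/- mice. The lowest Nod2-/- mouse lay just under the highest WT mouse. On the log2 scale the fold change was 1.70 (SE 0.32, adjusted p = 0.0261 by edgeR, 2.36e-05 by DESeq2), and the call held in 10 of the 13 fits with 1 mouse left out, all but those without WT replicates 1, 2 or 4, where the adjusted p was at most 0.0728.

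Of the other enzymes and transporters of gluconeogenesis, 1 of 23 tested genes passed 5% FDR by edgeR, *Slc25a13*, and the median log2 fold change of the list was -0.10. At an unadjusted p under 0.05 by edgeR, 3 were higher and 4 lower, beside 12.9% and 10.2% of all tested genes. DESeq2 called 2 of the list higher and 3 lower, beside 4.38% and 4.03% of all genes. *Slc37a4*, the gene of the carrier that brings glucose 6-phosphate to the *G6pc* product, stood at -0.19 on the log2 scale (edgeR adjusted p = 0.425). The 26 tested regulators of gluconeogenic transcription had a median of -0.07 and 0 calls by edgeR, with 1 gene higher and 5 lower at an unadjusted p under 0.05 and 3 lower by DESeq2. Their extremes were *Pde4b*, a cAMP phosphodiesterase gene (0.52, adjusted p = 0.183 by edgeR), and *Klf9*, a glucocorticoid-induced factor gene (-0.55, adjusted p = 0.0794 by edgeR, 0.0188 by DESeq2, and 0.0489 by edgeR without Nod2-/- replicate 2).

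Insulin signal transduction had 0 calls among 26 tested genes by edgeR and a median log2 fold change of -0.10. DESeq2 called 1 gene lower, beside 4.03% of all genes. The list had 6 genes lower and 0 higher at an unadjusted p under 0.05, beside 10.2% and 12.9% of all tested genes. Its extremes were *Eif4ebp1*, a translation repressor gene (0.37, adjusted p = 0.222 by edgeR), and *Rptor*, the gene of the mTORC1 scaffold raptor (-0.30, adjusted p = 0.0723 by edgeR, 0.0108 by DESeq2, and 0.0463 by edgeR without WT replicate 3). Among 24 tested genes that brake insulin signalling, 0 passed by edgeR or DESeq2, 1 was higher and 3 lower at an unadjusted p under 0.05, and the median was 0.04. *Socs3*, a cytokine-induced inhibitor of the receptor, had 0.77 (adjusted p = 0.308 by edgeR), and *Deptor*, an inhibitor of mTOR, had -0.32 (adjusted p = 0.152 by edgeR).

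Among genes downstream of insulin and FOXO1, the 20 FOXO-responsive genes had a median of -0.03 and 0 calls by edgeR, 3 higher and 5 lower at an unadjusted p under 0.05 and 3 lower by DESeq2, with *Cdkn1a*, a cell cycle inhibitor gene, at 1.24 (adjusted p = 0.197 by edgeR, and 1.83 with 0.0461 without WT replicate 3) and *Txnip*, a glucose-responsive gene, at -0.83 (adjusted p = 0.0624 by edgeR, 0.00560 by DESeq2, and by edgeR 0.0340 without WT replicate 3 and 0.0464 without Nod2-/- replicate 5). The 12 genes that insulin induces in liver had the highest median of the lists, 0.39, with 0 calls by edgeR, 1 higher (*Scd1*) by DESeq2 and 4 higher and 1 lower at an unadjusted p under 0.05. Among all tested genes, 12.9% were higher and 10.2% lower at that bar, and DESeq2 called 4.38% higher and 4.03% lower. Without WT replicate 3, edgeR called 3 of the 12 higher, and voom did so with all mice. These were the lipid droplet gene *Pnpla3* and the fatty acid synthesis genes *Scd1* and *Fasn*. *Pnpla3* had a value of 2.27 by edgeR (adjusted p = 0.129), 3.88 without WT replicate 3 (adjusted p = 0.0174) and 3.66 by voom (adjusted p = 0.0428). *Scd1* had 1.93 by edgeR (adjusted p = 0.0673), with an adjusted p of 0.0111 by DESeq2 and 0.0121 by voom, and 2.70 by edgeR without WT replicate 3 (adjusted p = 0.00452). *Fasn* had 0.68 by edgeR (adjusted p = 0.143) and 0.90 without that mouse (adjusted p = 0.0339), with 0.0464 by voom, while the lipogenic gene *Thrsp* had -0.80 (adjusted p = 0.182).

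The 20 tested amino acid catabolic enzymes had a median of -0.20 and 0 calls by edgeR, with 2 higher and 4 lower at an unadjusted p under 0.05 and 1 higher and 3 lower by DESeq2. The shares of all genes, higher and lower, were 12.9% and 10.2% at that unadjusted bar and 4.38% and 4.03% by DESeq2. *Sds*, the serine dehydratase gene, stood at 0.94 (adjusted p = 0.0673 by edgeR, 0.00960 by DESeq2 and 0.0431 by voom). Glucocorticoid-responsive genes had 0 calls among 11 tested by edgeR, 2 higher and 3 lower at an unadjusted p under 0.05, 1 lower by DESeq2 and a median of -0.14, from *Mt2*, a metallothionein gene (2.39, adjusted p = 0.201 by edgeR, and 4.04 with 0.0647 without WT replicate 6), to *Lpin1*, a phosphatidate phosphatase gene (-1.11, adjusted p = 0.0849 by edgeR, 0.0159 by DESeq2). Of the 10 tested genes of the IGF axis, 1 passed by edgeR, *Igfals*, with a median of -0.05, and *Igfbp3*, another binding protein gene, had 0.61 (adjusted p = 0.309), and 0.28 without Nod2-/- replicate 6. Of the 12 fasting-responsive genes, 1 passed by edgeR, *Fgf21*, while the median was -0.33 and the thioesterase gene *Acot1* had -1.52 (adjusted p = 0.127 by edgeR, 0.0318 by voom, and by edgeR 0.0447 without WT replicate 3 and 0.0494 without Nod2-/- replicate 5). The IGF axis had 0 higher and 1 lower at an unadjusted p under 0.05, and the fasting-responsive genes 2 and 4. DESeq2 called 0 higher and 1 lower, and 2 higher and 1 lower, in the same order.

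**Figure D5:**
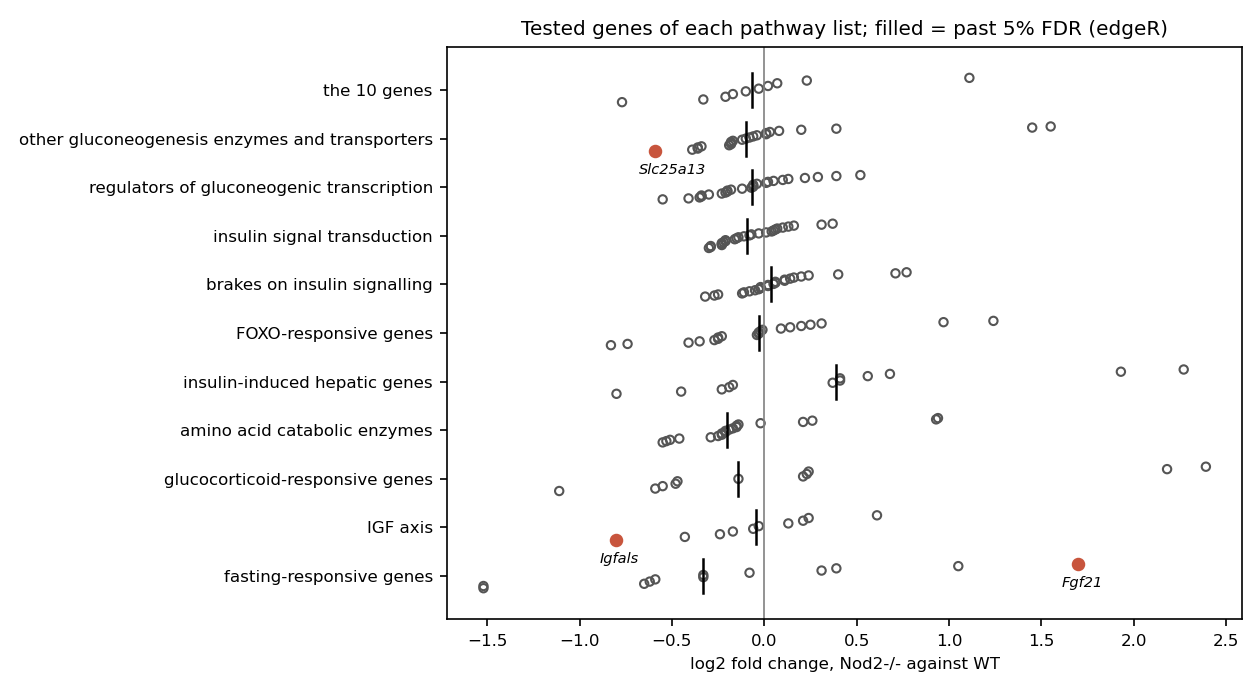
Log2 fold change (Nod2-/- against WT) of each tested gene of the 10 genes and of the 10 pathway lists, with a black line at each list's median and filled points for genes past 5% FDR by edgeR. The medians lie between -0.33 for fasting-responsive and 0.39 for insulin-induced genes, and 3 genes are filled: *Slc25a13*, *Igfals* and *Fgf21*.

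Finally, the genes whose pattern over the 13 mice was most like each of the 10 were read off by Pearson's r of log2(normalized count + 1), as a description. *Igfbp1* was followed most closely by the antiproliferative gene *Btg2* and by *Dynll1* (r = 0.95 for both), *Insr* by the cholesterol exporter gene *Abca1* (0.94) and *Aak1* (0.93), and *Irs2* by *Cdipt* (0.94) and *Atp13a1* (0.93). For the enzymes these were *Gemin2* and *Oplah* with *Pcx* (0.91 for both), *Mcrip2* and the pseudogene *Gm12251* with *Pck1* (0.94 for both), *Coasy* and *Cideb* with *Fbp1* (0.95 for both), *Mrpl30* and *Mrpl55* with *G6pc* (0.92 for both), and the pseudogene *Gm7691* (0.96) and *Lamtor1* (0.90) with *Tat*. *Irs1* was nearest to *Isy1* (0.86) and the pseudogene *Gm5525* (0.85), and *Foxo1* to the pseudogene *Gm15975* (0.89) and *Actr6* (0.87). Counts of pseudogenes can hold reads of their parent genes. None of the 20 genes most alike passed 5% FDR by edgeR.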

How the data were processed

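Polyadenylated liver RNA was sequenced with 1 library per mouse. Per the labels and the study's methods, the authors used Trimmomatic 0.33 for trimming and TopHat2 2.1.1 for alignment to GRCm38, and deposited whole-number counts on GENCODE genes for each mouse. The counting program and its strand setting are not given in the sources used here, so overlapping genes are uncertain. The main test of these counts was that of edgeR 4.0.16 under R 4.3.3 (TMM factors, filterByExpr, glmQLFit and glmQLFTest, two-sided, Benjamini-Hochberg adjustment over 13545 genes with 99.9% of counts, 5% FDR). A single gene or ratio was compared by exact permutation over all 1716 splits (smallest p 0.000583), and correlations used 100000 permutations. Ratios and correlations used a pseudocount of 1. Alternatives were DESeq2 1.42.0, voomWithQualityWeights of limma 3.58.1, RLE factors, no filter, a minimum of 10 counts in each mouse, a block for the replicate number, 1 surrogate variable by sva 3.50.0, a pseudocount of 10 for ratios, and leaving out each mouse. In simulated data for this comparison, with 13545 genes, edgeR recovered 73% of changes of 1 and 95% of changes of 2 on the log2 scale. The simulated counts followed a negative binomial model without outlying mice, and the changed genes were drawn at random from all tested genes. These shares therefore do not tell how often a change in variable genes such as *G6pc* or *Igfbp1* would be found. In all 36 pairs of libraries within a genotype, the difference exceeded sampling noise (ratios of chi-square to its degrees of freedom from 11.6 to 177), and every library counted as 1 sample. Replicates are individual mice, so p-values measure the spread between these mice. Positions come from GENCODE M21 on GRCm38, found for 53274 genes.

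The lists, like the 10 genes, were chosen with earlier results of these data known. Besides them, the named genes are list genes past 5% FDR, the extremes of each list with an average of at least 1 log2 CPM, *Pck2*, *Nod2* and the 2 genes most alike to each of the 10. *Slc37a4*, *Scd1* and *Fasn* were named after their values were seen. Results for some single genes and 1 ratio are not reported here.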

Additional observations from a re-analysis of the deposited data

Results flagged for a closer look

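Across 34 named genes and ratios in each genotype, 9 of 68 groups held 1 mouse farther from the rest than Dixon's 95% criterion allows. That criterion is passed in about 1 in 20 groups of independent, normally distributed values. Normalized counts are skewed and the genes share the same mice, so the 9 cases cannot be compared with that rate and are given as a description. *Fbp1* was lowest in WT replicate 3, at 13208 normalized counts, with the other WT mice between 18208 and 19711. The gap was 0.77 of the range, above the critical value of 0.625 for 6 mice. *Insr* was highest in the same mouse, at 3889.7, with the others between 2389 and 2673 (gap 0.81). *Pnpla3* was also highest there among WT mice, at 95.8, with the others between 0 and 14.4 (gap 0.85), and so was *Scd1*, at 9912 against 919.8 to 3508 (gap 0.71). *Igfbp1* was highest in Nod2-/- replicate 4, at 12567, with the other Nod2-/- mice between 922 and 3471 (gap 0.78, critical value 0.568 for 7 mice), and so was *Pck2*, at 262 against 52.3 to 127 (gap 0.64). The remaining cases were *Fgf21* in Nod2-/- replicate 2, at 594 against 109 to 298 (gap 0.61), *Acot1* in Nod2-/- replicate 5, at 625 against 69.6 to 269 (gap 0.64), and *Mt2* in WT replicate 6, at 2211 against 40.0 to 354 (gap 0.86). WT replicate 3 had the highest cholangiocyte marker sum among WT mice (217 CPM) and Nod2-/- replicate 4 the highest of all mice (402 CPM), and their part in these values was not tested.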

How the results depend on the processing

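None of the 10 genes passed 5% FDR under any of the 7 other settings or in the 13 fits that left out 1 mouse. The number of genes past 5% FDR over the whole table, 88 higher and 69 lower by edgeR, was 630 and 579 by DESeq2, 519 and 324 by voom and 381 and 316 with 1 surrogate variable, and with 1 mouse left out it ranged from 20 to 697 higher and from 20 to 459 lower, the highest without WT replicate 3. The cause was not tested. For the 180 pathway genes, 1 higher and 2 lower by edgeR became 6 and 16 by DESeq2, 7 and 6 by voom and 9 and 6 with the surrogate variable, and 0 to 7 and 0 to 11 with 1 mouse left out. With the replicate number as a block, 17 genes were higher and 18 lower, of which 0 and 1 were pathway genes. Mice of the same number had correlations of their deviations between -0.302 and 0.304, and none of the 6 correlated best with its own number. The numbers thus gave no sign of pairing, though weak correlations cannot exclude it.

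The log2 fold changes of the 10 genes kept their side in 190 of 200 refits. *Fbp1* moved to 0.04 with the surrogate variable and lay between -0.12 and 0.00 with 1 mouse left out, *Irs2* moved to -0.06 by voom and lay between -0.10 and 0.15, and *Insr* lay between -0.14 and 0.01. With 1 mouse left out, the difference in mean normalized counts ranged from -1803 to -1083 for *Pcx*, where the unadjusted exact permutation p was over 0.05 in 9 of the 13, from -1277 to 107 for *Fbp1*, from -263 to 37.0 for *Insr* and from -19.6 to 29.9 for *Irs2*. The log2 ratio of *Irs2* to *Irs1* differed by -0.24 to 0.09. The correlated pairs past the threshold numbered 0 to 5. The 22 other named list genes kept their direction in all 439 refits, losing their call in 22 and gaining one in 34. The median log2 fold change of all genes was 0.016 as reported and lay between 0.005 and 0.048 under the 7 other settings. Under the block *G6pc* had -0.46, *Igfbp1* 1.87 and *Pde4b* 0.34, *Pck1* had -0.20 with the surrogate variable and *Socs3* 0.45 by voom. With 6 and 7 mice, the interval of *Igfbp1* spans folds from 0.697 to 6.65.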
